A study of Canis lupus familiaris with 4 samples.

Results

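Laminins are the trimers that build the sheet of the basement membrane, and 8 genes of laminin chains (LAMA1, LAMA2, LAMA3, LAMA4, LAMB1, LAMB2, LAMB3 and LAMC1) and NID2, which encodes the linker protein nidogen 2, were followed in canine mammary ductal carcinoma. These 9 genes were taken by symbol from count tables of 11277 genes. RNA came from 6 female dogs of different breeds, not neutered and aged 5 to 14 years, each giving early-stage ductal carcinoma of the mammary gland and non-tumor gland tissue from beside it (the control) at mastectomy. Carcinoma gave the libraries T1 and T2 and control gave C1 and C2, each a pool of 3 dogs, and the study describes the control pools as paired with the carcinoma pools, so T1 and C1 (pool 1) and T2 and C2 (pool 2) were taken as the same dogs. Replicates are thus pools, and how single dogs differ cannot be seen. These are bulk samples, so fewer cells of a type and less RNA per cell cannot be told apart.

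A laminin holds an alpha, a beta and a gamma chain, wound into a coiled coil, and its name gives the numbers of these chains, so that laminin 211 is made of the alpha 2, beta 1 and gamma 1 chains. The N-terminal arms of most chains tie laminins to each other in the basement membrane, while the C-terminal globules of the alpha chain bind integrins and dystroglycan on the cell surface, and nidogens bind the gamma 1 chain and type IV collagen. In the mammary gland the basement membrane lies under the myoepithelial and luminal cells and around vessels, nerves and fat cells. Laminin 111 is known as an epithelial laminin, laminin 211 as that of skeletal muscle and peripheral nerve, and laminins 411 and 421 as those of vessel walls.

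The tables held from 3236218 (T2) to 35496260 (T1) counts per library, and both libraries of pool 2 were the shallow ones. Levels are CPM, counts scaled to a common library total after TMM normalization, and each carcinoma over control fold change comes from edgeR's quasi-likelihood test on all genes, with Benjamini-Hochberg adjusted p-values. A gene was called higher or lower in carcinoma when its adjusted p was below 0.05 and it changed by a log2 of 1 or more. Of the 9 genes, 4 were called lower in carcinoma (LAMA2, LAMB1, NID2 and LAMA1), where 5.24% of all genes were, and 5 were not called. By edgeR 0 were called higher, where 4.62% of all genes were (1 at an unadjusted p under 0.05, and 0 called by DESeq2). Both carcinoma libraries lay below both controls for 6 of the 9 genes, against 28.0% of all genes, and above both for 1, against 29.6%. The median log2 fold change of the 9 genes was −0.44, beside 0.03 over all genes tested. Their counts ran from 56 (NID2 in T2) to 52971 (LAMA2 in C1), so that in T2 the counting error alone gave NID2 a 95% Poisson interval of 12.6 to 21.6 CPM. Such intervals cover counting error only.

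**Figure D1:**
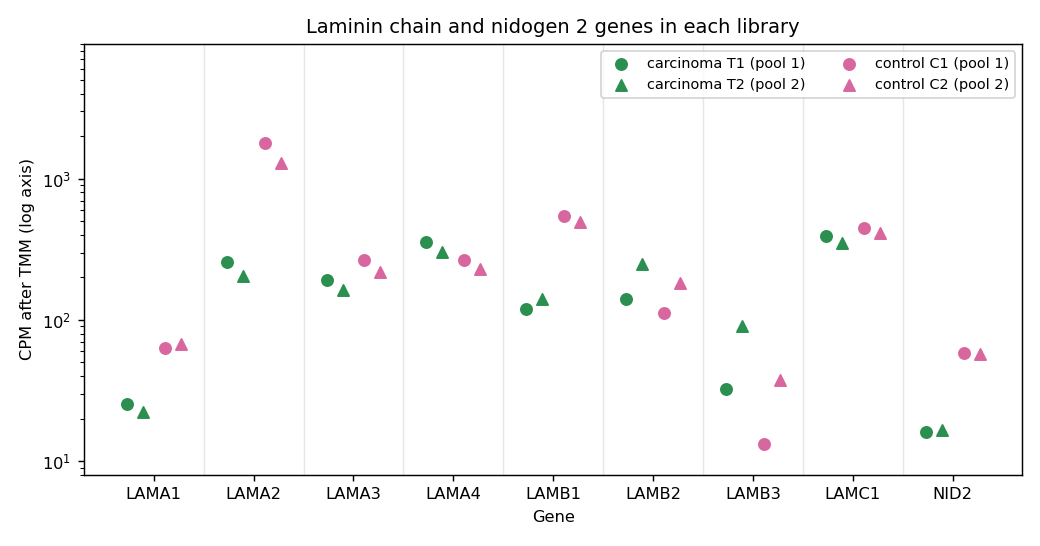
CPM after TMM (log axis) of the 9 genes, with 1 plot symbol per library, carcinoma in green and control in pink, circles for pool 1 and triangles for pool 2. For LAMA2, LAMB1, LAMA1 and NID2 the green symbols lie far below the pink ones, as for LAMA2 with 258 and 205 CPM in carcinoma against 1794 and 1295 CPM in control. Levels are not scaled to gene length, so heights are to be read within a gene.

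LAMA2, which encodes the alpha 2 chain whose loss causes a congenital muscular dystrophy in humans, had the largest change of the 9 genes. Its level was 258 CPM in T1 and 205 CPM in T2, against 1794 CPM in C1 and 1295 CPM in C2. Each carcinoma library lay far below each control, a fitted 6.66-fold lower. The log2 fold change was −2.74 (standard error, SE, 0.22, adjusted p = 0.00349), with −2.80 within pool 1 and −2.66 within pool 2. In the order of all 11277 genes by fold change, LAMA2 stood at place 159 from the lowest.

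LAMB1 encodes the beta 1 chain, the beta partner of alpha 1, alpha 2 and alpha 4 chains in laminins 111, 211 and 411. It was at 120.4 CPM in T1 and 141 CPM in T2, against 547 CPM in C1 and 493 CPM in C2. Both carcinoma libraries lay far below both controls. The log2 fold change was −2.00 (SE 0.14, adjusted p = 0.00255), and it was larger within pool 1 (−2.18) than within pool 2 (−1.81), with 1 pair of libraries in each.

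LAMA1, which encodes the alpha 1 chain of the laminin of early embryos and of some epithelia, fell as well. Its level was 25.4 CPM in T1 and 22.3 CPM in T2, against 63.6 CPM in C1 and 67.0 CPM in C2. The log2 fold change was −1.44 (SE 0.15, adjusted p = 0.00588), and within the pools −1.32 and −1.58. NID2 was lower to a fitted 28.3% of control. It stood at 16.2 CPM in T1 and 16.7 CPM in T2, against 58.0 CPM in C1 and 57.7 CPM in C2, so that the libraries of each group nearly coincided. Its log2 fold change was −1.82 (SE 0.16, adjusted p = 0.00371), with −1.84 within pool 1 and −1.79 within pool 2. The calls of LAMA2, LAMB1, LAMA1 and NID2 held without any single library, with adjusted p-values of at most 0.0222 in edgeR's test.

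LAMC1, LAMA4 and LAMA3 moved little. LAMC1 encodes the gamma 1 chain, which most laminins contain. It was at 392 CPM in T1 and 353 CPM in T2, against 446 CPM in C1 and 412 CPM in C2, with carcinoma just below control in each pool. The log2 fold change was −0.20 (SE 0.12, adjusted p = 0.328). LAMA4 encodes the alpha 4 chain of vessel walls, which lacks the long N-terminal arm of other alpha chains. Its level was 355 CPM in T1 and 305 CPM in T2, against 268 CPM in C1 and 228 CPM in C2. Both carcinoma libraries were above both controls, the one such case among the 9 genes, but the log2 fold change of 0.41 (SE 0.14, adjusted p = 0.139) did not pass. LAMA3, the gene of the alpha 3 chain of epithelial laminins, was at 190.2 CPM in T1 and 164 CPM in T2, against 264 CPM in C1 and 217 CPM in C2, a log2 fold change of −0.44 (SE 0.15, adjusted p = 0.135). The changes within pools 1 and 2 were alike for LAMC1 (−0.19 and −0.22), LAMA4 (0.41 and 0.42) and LAMA3 (−0.47 and −0.41).

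LAMB3 and LAMB2 differed more between pools than between tissues. LAMB3 encodes the beta 3 chain, found in the laminin that anchors the hemidesmosomes of basal epithelial cells. It was at 32.4 CPM in T1 and 91.0 CPM in T2, against 13.1 CPM in C1 and 37.3 CPM in C2. The groups overlapped, since T1 lay below C2, but within each pool carcinoma was above control, by 1.29 in pool 1 and 1.28 in pool 2 on the log2 scale. Pool 2 exceeded pool 1 by 1.49 in carcinoma and by 1.50 in control, also as log2 differences. The log2 fold change of LAMB3 was 1.32 (SE 0.70, adjusted p = 0.287). LAMB2 encodes the beta 2 chain of nerve, muscle junction and vessel laminins. Its level was 141 CPM in T1 and 247 CPM in T2, against 113 CPM in C1 and 182 CPM in C2, and the groups overlapped. Its log2 fold change was 0.40 (SE 0.35, adjusted p = 0.506), with 0.33 within pool 1 and 0.44 within pool 2, while pool 2 exceeded pool 1 by 0.81 in carcinoma and 0.69 in control. Without T2 it was −0.05 and without C1 0.04, so its direction turned without T2. For LAMB3 these values were 0.41 and 0.63, and without T1 and without C2 they were 1.87 and 2.19.

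When pool number entered the fit as a replicate block, which sets each carcinoma pool against the control of the same dogs, LAMB3 was called higher at a log2 fold change of 1.29 (SE 0.10, adjusted p = 1.22e-27), where 7.09% of all genes were. The same 4 genes were called lower with the block, where 6.83% of all genes were. All 9 genes then had an adjusted p under 0.05, the largest 0.000412 for LAMC1, but so had 64.1% of all genes at any fold change. That fit has a single residual degree of freedom.

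**Figure D2:**
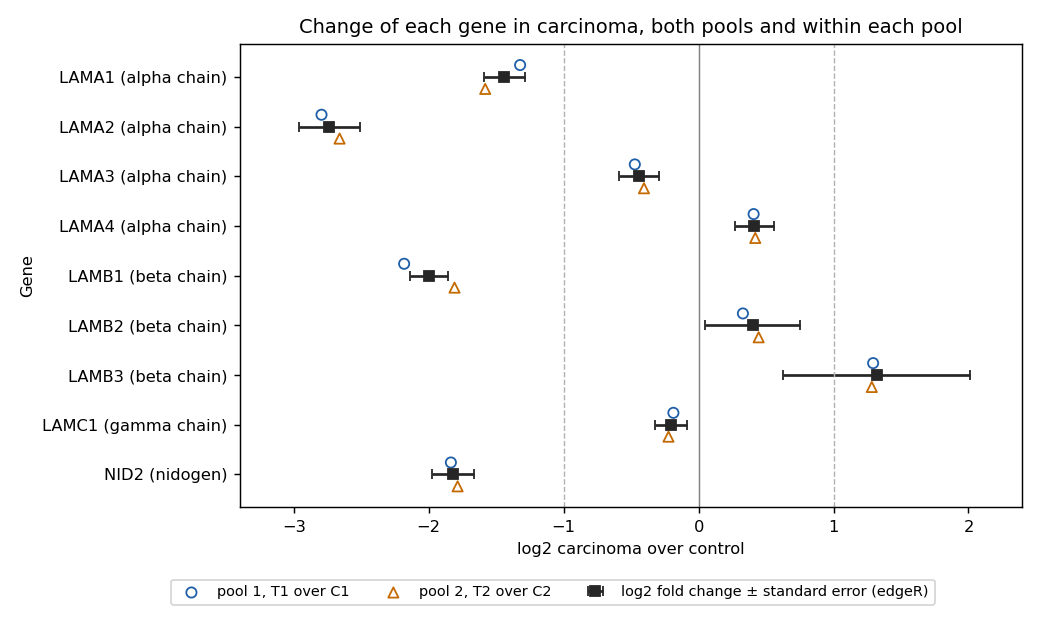
Log2 carcinoma over control (x axis) for each of the 9 genes. Black squares give edgeR's fit with bars of 1 standard error, open circles T1 over C1 and open triangles T2 over C2, and dashed lines mark the fold threshold of the call. LAMA2 lies at −2.74 and LAMB1 at −2.00, while LAMB3 has the widest bar (SE 0.70) and pool values of 1.29 and 1.28.

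Reads of neighboring genes could bear on some of these values, which was not tested. The sources name different counting tools, so the strand setting used for these tables is not known here, and reads of overlapping genes cannot be told apart. In the RefSeq annotation LAMB3 overlaps HSD11B1, which encodes an enzyme of cortisol metabolism and was called higher (log2 fold change 1.12, adjusted p = 0.0338), and LAMB2 overlaps CCDC71 (log2 fold change 0.44, adjusted p = 0.713). Genes that were not measured also overlap LAMB3 (G0S2), LAMA2 (LOC102151333 and long non-coding RNA genes) and LAMA3 (long non-coding RNA genes). Of the genes adjacent to LAMA2, PTPRK (−0.12, adjusted p = 0.552) was not called, and ARHGAP18 (−0.52, adjusted p = 0.0379) missed only the fold threshold. Beside LAMB1, DLD (−0.03) was not called, but LAMB4 was called lower (log2 fold change −2.68, adjusted p = 0.00852). LAMB3 and LAMB2 had lengths of only 0.297 and 0.393 of their RefSeq span, so whether their overlaps hold in the counted gene models is not known here. Gene lengths in the tables ran from 0.297 (LAMB3) to 1.01 (LAMC1) of the whole span of the gene in RefSeq. Over the 9411 genes matched by symbol the median was 0.97 of that span, so counts may include reads of introns. Levels were therefore not scaled to length and different genes were not ranked by level.

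Read by trimer, the chains of a laminin did not move together where LAMA2 or LAMB1 was among them. For laminin 211 the alpha and beta genes were called lower (LAMA2 at −2.74 and LAMB1 at −2.00 in log2 fold change) and the gamma gene was not (LAMC1 at −0.20). Laminin 111 had the same picture, with LAMA1 at −1.44 beside the same beta and gamma genes. For laminin 411 LAMB1 alone was called lower, and for laminin 221 LAMA2 alone. For laminins 421 and 321 no chain gene was called, and their chains lay within 0.62 and 0.84 of each other on the log2 scale. LAMA3 at −0.44 and LAMB3 at 1.32, whose chains meet in the laminin of hemidesmosomes, lay on opposite sides of 0, and neither was called. A chain can take part in several trimers, and RNA levels do not say how many trimers were made.

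Ratios of chain genes within a library do not depend on its total, and their difference between tissues does not depend on gene length. The log2 ratio of LAMB1 to LAMB2, the genes of the beta chains that pair with gamma 1, was −0.23 in T1 and −0.81 in T2, against 2.28 in C1 and 1.44 in C2. Carcinoma was below control in both pools, by a mean log2 difference of −2.38, or 5.21-fold. The log2 ratio of LAMA2 to LAMA4 was −0.46 in T1 and −0.58 in T2, against 2.74 in C1 and 2.50 in C2. This was the largest shift of the 11 ratios computed, an 8.83-fold lower ratio in carcinoma (log2 difference −3.14, with −3.20 within pool 1 and −3.08 within pool 2).

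Set against LAMC1, the gene of the shared gamma chain, LAMA2 was lower in carcinoma by a log2 difference of −2.52, LAMB1 by −1.79, NID2 by −1.61 and LAMA1 by −1.25, and LAMA4 was higher by 0.62. In each of these ratios both carcinoma libraries lay on the same side of both controls. The ratio of LAMB2 to LAMC1 overlapped between the groups, with a difference of 0.59. The ratio of NID2 to NID1, the genes of the 2 nidogens, was lower in carcinoma by a log2 difference of −1.51. The ratio of LAMA2 to LAMA1 was lower by a difference of −1.28, although both genes fell. The ratio of LAMA3 to LAMB3 was 2.55 in T1 and 0.85 in T2, against 4.32 in C1 and 2.54 in C2, all on the log2 scale, and the groups overlapped narrowly. Within the pools its differences were −1.77 and −1.69. In an exact two-sided permutation test over the 4 libraries, the 9 ratios whose groups did not overlap had p = 0.333, the smallest that 2 libraries against 2 can give (0.407 after Benjamini-Hochberg adjustment over the 11 ratios), so the design cannot show a difference by this test.

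**Figure D3:**
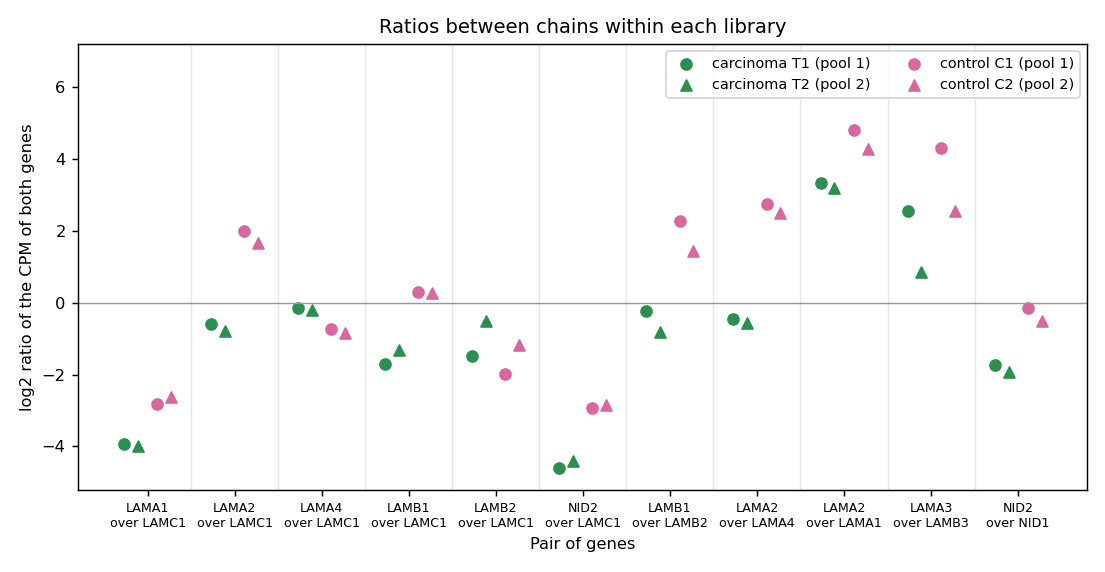
Log2 ratio of the CPM of 2 genes within each library (y axis) for the 11 pairs on the x axis, carcinoma in green and control in pink, circles for pool 1 and triangles for pool 2. The ratio of LAMA2 to LAMA4 lies at −0.46 and −0.58 in carcinoma and at 2.74 and 2.50 in control, and that of LAMA3 to LAMB3 spreads by pool in both tissues.

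Other genes of the laminin family were read from a list of 9, of which 6 were measured. In this list 2 genes were called lower, 1 higher and 3 did not pass. LAMB4, a little studied beta chain gene, had 32 counts in T1 and 3 in T2, against 175 in C1 and 25 in C2, and a log2 fold change of −2.68 (SE 0.33, adjusted p = 0.00852). In pool 2 alone the ratio of carcinoma to control was 0.154 with a 95% exact interval of 0.0298 to 0.505, and without T1 the adjusted p was 0.0504. In the RefSeq annotation LAMB4 is the neighbor of LAMB1. EGFLAM, which encodes pikachurin, a dystroglycan ligand with laminin G domains, was at 11.3 CPM in T1 and 13.7 CPM in T2, against 39.5 CPM in C1 and 41.0 CPM in C2. It was called lower, at a log2 fold change of −1.71 (SE 0.20, adjusted p = 0.00776).

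NTN4 encodes netrin 4, which resembles the short arm of laminin beta chains and binds laminin gamma 1. It rose, with 232 CPM in T1 and 210.3 CPM in T2, against 106 CPM in C1 and 73.9 CPM in C2, a log2 fold change of 1.29 (SE 0.20, adjusted p = 0.0166). NTN1, which encodes the guidance cue netrin 1, had a log2 fold change of 0.80 and an adjusted p of 0.0607. NID1, the gene of nidogen 1, was at 54.4 CPM in T1 and 63.6 CPM in T2, against 64.3 CPM in C1 and 81.6 CPM in C2, a log2 fold change of −0.31 (adjusted p = 0.315).

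Among 17 measured genes of other basement membrane components, 6 were called lower, 2 higher and 9 did not pass, and their median log2 fold change was −1.05. With the replicate block 10 were lower, and without T2 10 were. HMCN1 and HMCN2 encode hemicentins, large matrix proteins of basement membrane contacts. HMCN1 was at 149 CPM in T1 and 120.5 CPM in T2, against 1118 CPM in C1 and 846 CPM in C2, a log2 fold change of −2.86 (SE 0.20, adjusted p = 0.00262). FREM1 and FRAS1, whose proteins take part in a complex that joins epithelium to the underlying tissue, fell. Their log2 fold changes were −2.79 (adjusted p = 0.00177) and −1.46 (adjusted p = 0.00290). FREM2 of the same list, chosen for mention after its value was seen, did not fall (0.24, adjusted p = 0.459). Both of its carcinoma libraries lay above both controls. The 2 genes called higher were SMOC1 and NPNT. SMOC1, which encodes a calcium-binding matrix protein, had a log2 fold change of 1.38 (adjusted p = 0.00596). NPNT, which encodes the integrin ligand nephronectin, had one of 1.22 (adjusted p = 0.0132). The call of NPNT, named after its value was seen, was lost without T1 and without C1. HSPG2 and AGRN encode perlecan and agrin, the heparan sulfate proteoglycans of the basement membrane. Their log2 fold changes were −1.03 (adjusted p = 0.402) and 0.92 (adjusted p = 0.427), and like LAMB2 and LAMB3 they overlapped between the groups. HSPG2 was called lower with the replicate block and without T2, and both genes were chosen for mention after their values had been seen.

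Type IV collagen, the other network of the basement membrane, had 5 measured chain genes with a median log2 fold change of −0.15. COL4A6 was called higher, at 1.45 (SE 0.15, adjusted p = 0.00596), and COL4A4 lower, at −2.04 (SE 0.27, adjusted p = 0.00998), both in log2 fold change. COL4A5 reached an adjusted p of 0.0421 at a log2 fold change of 0.55, below the fold threshold. COL4A1, the gene of the common alpha 1 chain, had −0.39 (adjusted p = 0.529).

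**Figure D4:**
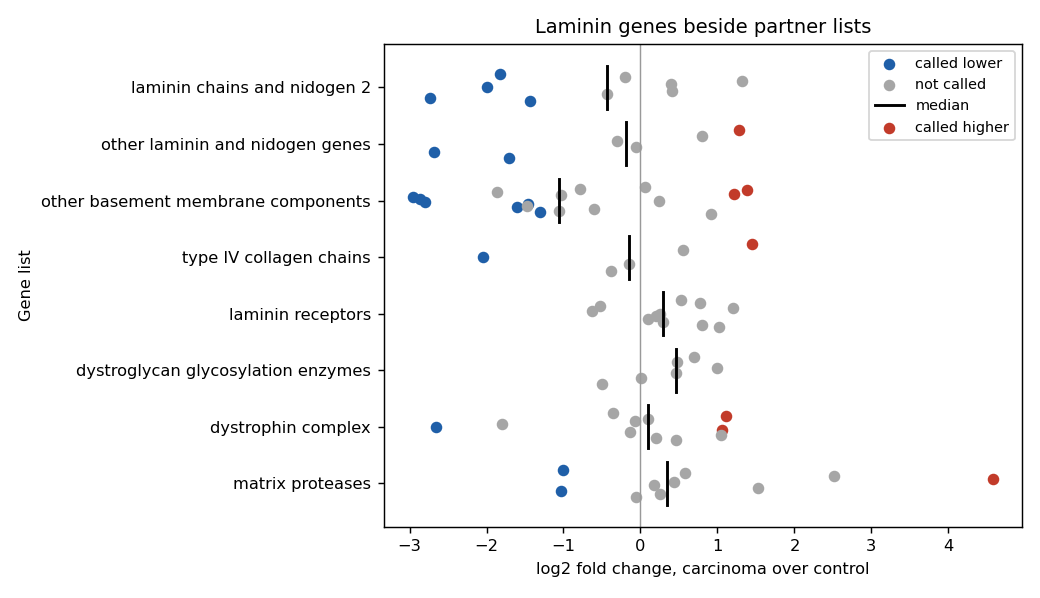
Log2 fold change of carcinoma over control (x axis) for each measured gene of 8 lists, with 1 point per gene, blue if called lower, red if called higher and gray if not called, and a black bar at the median. The 9 laminin and nidogen genes have a median of −0.44 and the other basement membrane components one of −1.05, while the 11 laminin receptor genes, all gray, have one of 0.29.

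The genes of laminin receptors showed no call. Of 11 measured, edgeR called 0 in either direction (0 higher and 2 lower at an unadjusted p under 0.05, and 0 by DESeq2), and their median log2 fold change was 0.29. ITGA6, which encodes the alpha 6 integrin subunit of epithelial laminin receptors, was at 216 CPM in T1 and 205 CPM in T2, against 334 CPM in C1 and 317 CPM in C2. Its log2 fold change of −0.63 (SE 0.11, adjusted p = 0.0227) was below the fold threshold. ITGB1, the gene of the shared beta 1 subunit, had −0.53 (adjusted p = 0.111), and DAG1, which encodes dystroglycan, the receptor of the alpha 2 chain in muscle, had 0.29 (adjusted p = 0.341; chosen for mention after its value was seen). ITGA7, the gene of a muscle laminin receptor subunit, had a log2 fold change of 1.20 (adjusted p = 0.274) and was called higher with the replicate block (1.25).

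Dystroglycan binds laminin through sugars made by a chain of enzymes, and inside the cell it joins the dystrophin complex. Of 6 measured glycosylation enzyme genes edgeR called 0 (2 higher and 1 lower at an unadjusted p under 0.05, and 0 by DESeq2), with a median log2 fold change of 0.46, and the replicate block called 1 higher. Of 11 measured genes of the dystrophin complex, 2 were called higher, 1 lower and 8 did not pass. SSPN, which encodes sarcospan, rose by 1.11 (SE 0.11, adjusted p = 0.00489), and SGCD, which encodes delta-sarcoglycan, by 1.06 (SE 0.17, adjusted p = 0.0177). The call of SGCD was lost without T1 and without C1. SGCE, which encodes epsilon-sarcoglycan, fell, with −2.66 ± 0.31 (log2 fold change ± SE, adjusted p = 0.00714).

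Of 10 genes of proteases that act on matrix proteins, 1 was called higher, 2 lower and 7 did not pass. MMP7, the gene of matrilysin, was at 30.5 CPM in T1 and 31.5 CPM in T2, against 1.42 CPM in C1 and 0.927 CPM in C2, a log2 fold change of 4.58 (SE 0.30, adjusted p = 0.00215). It had only 42 counts in C1 and 4 in C2, so the size of this change is uncertain. With at least 10 counts required in every library MMP7 was not tested, and 0 of these genes were called higher. TLL1, which encodes a tolloid-like protease (adjusted p = 0.0123), and CTSS, which encodes cathepsin S (adjusted p = 0.0298), both lay just past the fold threshold on the lower side, and without C1 neither was called, nor was CTSS without T2. MMP9, which encodes a gelatinase, had a log2 fold change of 2.51 with an adjusted p of 0.0575, and was called higher by DESeq2, with the replicate block and without T1, T2 or C2. With the replicate block 3 of these genes were called higher.

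Summed levels of striated muscle, fibroblast and blood endothelium markers were lower in carcinoma. Of 9 measured striated muscle markers 9 were called lower in carcinoma, and their summed level was 27.9 CPM in T1 and 32.7 CPM in T2, against 1955 CPM in C1 and 3048 CPM in C2, with TNNT3 and ACTN2, which encode a troponin and an actinin of the sarcomere, at 0 counts in T2. Of 9 measured fibroblast markers 5 were called lower and 4 did not pass, with both carcinoma libraries below both controls for all 9, and the sum was 2750 CPM in T1 and 3600 CPM in T2, against 7609 CPM in C1 and 8449 CPM in C2. Of 8 measured markers of blood endothelium 5 were called lower, with sums of 423 CPM in T1 and 402 CPM in T2, against 806 CPM in C1 and 797 CPM in C2. With the replicate block 8 of the fibroblast markers were called lower. The log2 fold changes of the 8 endothelial markers ran from −1.72 for PECAM1, an adhesion molecule (adjusted p = 0.00374), to 0.03 for KDR and 0.30 for FLT1, the genes of VEGF receptors, which did not pass and were picked once their values were known. The part of these cell types in the lower LAMA2, LAMB1, LAMA1 and NID2 was not tested.

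The other marker sums differed less between tissues. Those of 7 basal and myoepithelial markers were 1342 CPM in T1 and 1761 CPM in T2, against 882 CPM in C1 and 1083 CPM in C2. Of these markers edgeR called 0 (4 higher and 1 lower at an unadjusted p under 0.05, and 2 higher by DESeq2). The log2 fold change was below 0 for 2 of the 7, TP63 (−0.42, adjusted p = 0.0608) and ACTA2 (−0.56, adjusted p = 0.528). ACTA2 was chosen for mention after its value was seen. KRT5, the keratin gene of basal cells, had a log2 fold change of 1.13 (adjusted p = 0.0884; chosen for mention after its value was seen), and was called higher with the replicate block (1.12), by DESeq2, without T1 and without C2. The block called 2 of these markers higher, and without T1 3 were. Luminal markers, of which 8 were measured, summed to 1305 CPM in T1 and 1372 CPM in T2, against 1613 CPM in C1 and 1459 CPM in C2, and ESR1, the estrogen receptor gene, was the 1 called lower (log2 fold change −1.87, adjusted p = 0.00259). Epithelial markers were thus present in all 4 libraries. Schwann cell markers (5 measured) summed to 153 CPM in T1 and 225 CPM in T2, against 208 CPM in C1 and 265 CPM in C2. Of these ERBB3 and NGFR were called lower, and the call of ERBB3 was lost without T1 and without C2. NGFR, a receptor gene of nerve and other cells, had 19 counts in T1 and 0 in T2, against 199 in C1 and 56 in C2, with an adjusted p of 0.0190. Sums overlapped between the groups for the Schwann cell, adipocyte and pericyte lists. The 6 measured pericyte genes had a median log2 fold change of 0.02, with 3 below 0. Of these PDGFRB, the gene of a growth factor receptor, was called lower (log2 fold change −1.86, adjusted p = 0.0219). CSPG4 (1.93, adjusted p = 0.308) and NOTCH3 (0.90, adjusted p = 0.349) lay above 0 and did not pass, and CSPG4 was called higher with the replicate block (1.50).

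**Figure D5:**
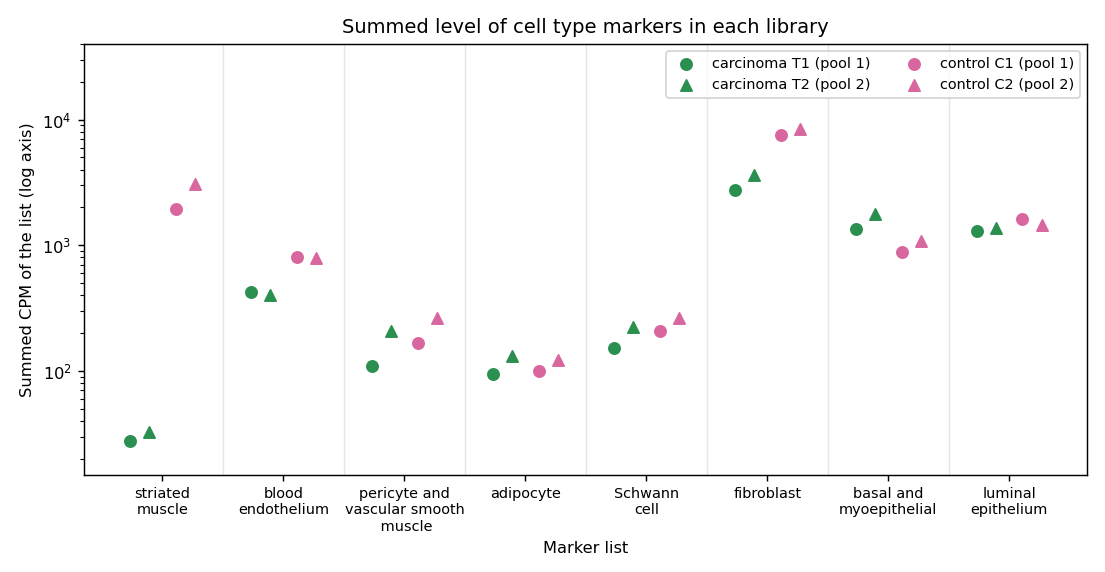
Summed CPM (log axis) of the measured genes of 8 marker lists, with 1 plot symbol per library, carcinoma in green and control in pink, circles for pool 1 and triangles for pool 2. Striated muscle markers lie at 27.9 and 32.7 CPM in carcinoma against 1955 and 3048 CPM in control, and fibroblast markers at 2750 and 3600 CPM against 7609 and 8449 CPM.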

How the data were processed

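RNA sequencing of 4 pooled libraries, 2 of carcinoma and 2 of control, gave the data. The values are whole-number counts per gene deposited by the authors, with a gene length column of their own (another unit, used only for description). The study's methods name TopHat2 and HTSeq, whereas STAR, featureCounts, FastQC and DESeq2 stand in the submitters' processing notes. Genome build: not given in the sources used here. The kit was stranded, and the methods give HTSeq with its default options, but as the notes name another counter, the strand setting behind these tables is not certain. All 11277 genes passed edgeR's filterByExpr and entered TMM scaling and the quasi-likelihood test (R 4.3.3, edgeR 4.0.16, limma 3.58.1), without a block, with Benjamini-Hochberg adjustment over all genes. Log2 CPM used a prior count of 2. The procedure was tested on simulated data.

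Deviations from the group means correlated at 0.782 between same-numbered libraries, but both libraries of pool 2 were also the shallow ones. That correlation cannot show that the dogs were the same. Pool numbers pair the libraries because the study describes the control pools as paired samples of the same dogs. The replicate block was therefore fitted as an alternative (common dispersion 0.00216, against 0.0508 without it; 1 and 2 residual degrees of freedom). Other alternatives were DESeq2 1.42.0, its size factors, no filter, at least 10 counts in every library, a prior count of 0.5 and leaving out each library. All 9 laminin and nidogen genes are named, and up to 4 genes with the smallest adjusted p of each other list; other genes named are NID1 (part of a ratio), neighbors by position, nearest profiles and markers at 0 counts, or are marked as chosen after their values were seen. Genes and lists were chosen with earlier results of these data known. Listed genes without a row in the tables (LAMA5 and LAMC3 among them) were not analysed here. With 2 libraries against 2, an exact permutation test of 1 gene cannot go below p = 0.333, so the calls rest on the spread shared across genes. 1 measured gene of the laminin family is counted in its list but not reported here by name.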

Additional observations from a re-analysis of the deposited data

Results flagged for a closer look

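PMP22, which encodes a myelin protein and is one of the Schwann cell markers, had a log2 carcinoma over control ratio of −0.46 in pool 1 and 0.086 in pool 2, so that the pools moved in opposite directions, and the difference was not tested.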

How the results depend on the processing

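The calls of LAMA2, LAMB1, LAMA1 and NID2 held under all 9 alternatives. Of 81 alternative fold changes of the 9 genes, 79 kept their direction and side of the threshold. LAMB2 turned to −0.049 without T2 (adjusted p = 0.979; 0.78 without C2), and LAMB3 passed with the replicate block (1.29, adjusted p = 1.22e-27), so that 1 of the 9 genes was called higher there, and the block changed no other call among the 9. Over all genes, 521 were called higher, 800 with the replicate block and 342 without C1, and the range without 1 library was 342 to 508 higher and 421 to 548 lower. Of 270 alternative counts over the other lists and markers 33 moved by more than 1.5 times, or to or from 0. Of 77 alternative ratios 4 moved by more than the spread between replicates, all within single pools, LAMA1 to LAMC1 (−1.14 and −1.36) and LAMB1 to LAMC1 (−2.00 and −1.59). The cause was not tested. With 56 counts of NID2 and 75 of LAMA1 in T2, depth limits the levels of these genes most.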

Other observations

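The genes whose profile over the 4 libraries was nearest to that of a laminin gene were found by Euclidean distance between log2 CPM values centered on each gene's mean. For LAMA2 they were ZFPM2 (distance 0.0689), SGCE (0.103) and HGF (0.132), and for LAMB1 they were CRISPLD2 (0.0591), MXRA5 (0.0706) and PHF7 (0.0985). Nearest to LAMA1 were CDH5 (0.0791), MYOM1 (0.0898) and CYP2J2 (0.0949), and nearest to NID2 were ACOXL (0.0665), DHRS9 (0.0958) and GIPC2 (0.129). Nearest to LAMB3 were GPRC5C (0.129), DDIT4 (0.140) and ZFP36L1 (0.167). Among the 9 genes themselves, LAMB1 and NID2 had the closest profiles (0.246), followed by LAMA3 and LAMC1 (0.266) and by LAMA1 and NID2 (0.397).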
